A study of Rattus norvegicus with 6 samples.

Results

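Heat shock chaperones were measured by RNA sequencing in 6 libraries of PC12, a rat adrenal pheochromocytoma line used as a neuronal model. The cells of 3 libraries (EC) had received exosomes, small secreted vesicles, from control endothelial cells, and the cells of the other 3 (EN) had received exosomes from endothelial cells with high expression of netrin-1, an axon guidance protein. Neither the passage or dose nor an untreated group is described in the labels, so both groups share the exosome treatment as such. The members are Hspa8, Hspb1, Hspb8, Hsph1, Hsp90aa1, Hsp90ab1, Dnajb1, Bag3, Hspd1 and Hspe1, found by symbol among 33350 gene models, with 1 row for each of 9 of the 10 symbols and none for Hspe1. Of the 9 rows, 7 had a mean of at least 1 FPKM (fragments per kilobase of gene, scaled to library size) and were tested, while Hspb1 and Hspb8 lay below it.

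Heat shock chaperones bind unfolded or partly folded proteins, hold them soluble, and fold them or pass them on for degradation. HSC70, the product of Hspa8, works in a cycle of ATP hydrolysis that J-domain proteins such as DNAJB1 start and that exchange factors such as HSPH1 and BAG3 end, and it hands clients such as kinases and steroid receptors to HSP90. The small heat shock proteins hold clients without ATP, and HSP60 with its lid HSP10 (Hspd1 and Hspe1) folds proteins in the mitochondrial matrix. Under proteotoxic stress the transcription factor HSF1 binds heat shock elements, inverted repeats of the letters GAA, in the promoters of many of these genes, while HSC70 and HSP90-beta are also made at a high level in unstressed cells.

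The promoters are shown because these letters are what the members are best known to share. Of the 10 members, 9 matched a promoter window of RefSeq (GRCr8 build, 250 bases before to 50 after the start), all but Hsp90aa1. The heat shock element of 3 alternating repeats (GAA, TTC and GAA, with any 2 bases between neighbours), searched on both strands, was in 4 of these 9 windows (Hspa8, Hsph1, Hspd1 and Hspe1), against 0.798% of all 33469 windows. The shorter GAANNTTC, which lies within the longer motif, was in 8 of the 9, all but Hsp90ab1, against 8.59% of all windows. The 250 bases upstream of 5 members follow, 5′ to 3′ on the gene's strand. Capitals mark the longer motif in Hspa8, Hsph1 and Hspe1 and the shorter one in Bag3 and Hspb1.
Hspa8: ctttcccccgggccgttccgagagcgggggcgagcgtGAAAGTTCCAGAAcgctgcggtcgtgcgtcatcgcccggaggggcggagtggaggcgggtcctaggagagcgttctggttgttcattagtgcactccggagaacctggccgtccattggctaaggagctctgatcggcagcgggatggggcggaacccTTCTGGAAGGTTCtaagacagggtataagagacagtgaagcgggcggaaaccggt
Hsph1: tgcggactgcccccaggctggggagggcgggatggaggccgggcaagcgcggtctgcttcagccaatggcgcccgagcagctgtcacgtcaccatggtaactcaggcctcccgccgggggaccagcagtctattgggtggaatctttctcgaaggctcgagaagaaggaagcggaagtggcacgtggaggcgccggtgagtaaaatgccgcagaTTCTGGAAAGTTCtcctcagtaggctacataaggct
Hspe1: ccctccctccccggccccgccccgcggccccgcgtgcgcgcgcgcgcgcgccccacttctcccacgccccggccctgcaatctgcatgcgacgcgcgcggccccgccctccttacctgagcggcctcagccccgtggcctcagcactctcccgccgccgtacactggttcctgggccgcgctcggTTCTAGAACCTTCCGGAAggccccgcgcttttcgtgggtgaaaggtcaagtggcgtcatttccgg
Bag3: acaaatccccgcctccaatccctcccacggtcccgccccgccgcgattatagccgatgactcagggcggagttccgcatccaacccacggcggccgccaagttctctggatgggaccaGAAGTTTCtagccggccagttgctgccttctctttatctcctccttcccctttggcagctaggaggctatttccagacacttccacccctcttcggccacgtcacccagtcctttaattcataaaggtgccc
Hspb1: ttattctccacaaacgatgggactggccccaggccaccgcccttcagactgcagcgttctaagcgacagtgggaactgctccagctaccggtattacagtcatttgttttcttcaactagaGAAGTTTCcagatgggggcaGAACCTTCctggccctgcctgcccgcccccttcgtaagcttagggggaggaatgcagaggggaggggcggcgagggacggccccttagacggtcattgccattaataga
The windows lie at chr8:50080264-50080513 on the plus strand, chr12:10427118-10427367 on the plus strand, chr9:64084077-64084326 on the plus strand, chr1:192533210-192533459 on the plus strand and chr12:26432302-26432551 on the minus strand. Hspa8 held the longer motif at bases -213 to -201 and -55 to -43 before the start, and Hsph1 at bases -36 to -24. Hspd1 and Hspe1 are transcribed away from each other, and their windows share 211 bases, so that the overlapping matches at -65 to -53 and -60 to -48 of Hspe1 are the same bases as those in Hspd1. A match describes letters and was not tested for binding.

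The libraries held 15296193 to 16165804 reads in EC and 16654025 to 19626012 in EN, worked back from the FPKM, so each EN library was deeper. Mitochondrial transcripts took 5.43% to 6.09% of reads in EC and 4.40% to 5.50% in EN. Of 13 chromaffin markers, 2 reached a mean of 1 FPKM, and Chga, Chgb, Ddc, Pnmt and Hand2 were under 0.1, whereas 10 of 11 Schwann and glial markers reached 1 FPKM. The cells are therefore named here as labelled. The summed level of the Schwann and glial markers was 478 to 487 FPKM in EC and 420.4 to 453 in EN. Of 10 tested, 6 were lower and 1 higher in EN, against 7.14% and 7.24% of all tested genes. Endothelial markers summed to 3.33 to 4.12 FPKM in EC and 3.44 to 3.88 in EN, with Kdr, Vwf, Cldn5, Emcn, Erg and Sox17 under 0.1. The part of depth, mitochondrial share and Schwann markers in the results was not tested. Nothing in the labels says that replicates were separate cultures, so p-values cover the spread among these samples, which may be technical, and in bulk RNA fewer cells of a type and less RNA per cell cannot be told apart.

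The 7 tested rows of heat shock chaperones differed little between EN and EC. Their median absolute log2 change was 0.095, against 0.127 over all tested genes. None of the 7 tested members passed (limma on log2(FPKM + 1), Benjamini-Hochberg adjusted p under 0.05), where 14.4% of all 12198 tested genes did (7.24% higher and 7.14% lower in EN). A count of 0 among 7 is not far from that share. On average the Hspa8 and Hsp90aa1 rows held 1.61% and 6.39% of the FPKM summed with the models described below as the same proteins. At an unadjusted limma p under 0.05 there were 2 of 7, Bag3 and Hspd1, against 32.3% of all genes. The same 2 passed, both as higher, with limma voom on the whole reads and on the TPM scale. Counting both directions, 19.2% and 14.1% of all genes passed there. Of the 12198 genes, 1387 were higher and 956 lower with voom, and 957 and 766 on the TPM scale. Testing only genes of at least 5 FPKM gave 1 of 6 (Bag3), against 22.0%, and array weights gave 1 of 7 (Hspd1), against 31.6%. Log2 changes, EN minus EC on the log2(FPKM + 1) scale, ran from -0.04 (Dnajb1) to 0.19 (Bag3), with a median of 0.09 against -0.0028 over all tested genes, and the median was 0.061 without EN replicate 3. In 6 of the 7 rows the change was positive, against 49.4% of all genes. That count depended on the rows and the scale. The Hsp90aa1 change was -0.19 with the models described below summed in, and the Hsp90ab1 change was -0.05 with quantile normalization. In 3 of 7 every EN library lay above every EC library, against 18.6% of all genes, or 37.9% counting both directions. The highest library was EN replicate 3 for 5 of the 7, and the lowest was EC replicate 3 for 4 of them. The summed FPKM of the 9 rows was 1137, 1158 and 1115 in EC and 1170.5, 1178 and 1226 in EN. Its groups did not overlap, with means of 1137 ± 21.7 and 1192 ± 30.2 (SD, n = 3 each; exact two-sided permutation p = 0.1, the smallest that 3 against 3 allows). With the models described below as the same proteins summed in, the values were 1692, 1723 and 1669 in EC and 1748, 1718 and 1826 in EN, and the groups overlapped (exact permutation p = 0.2).

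**Figure D1:**
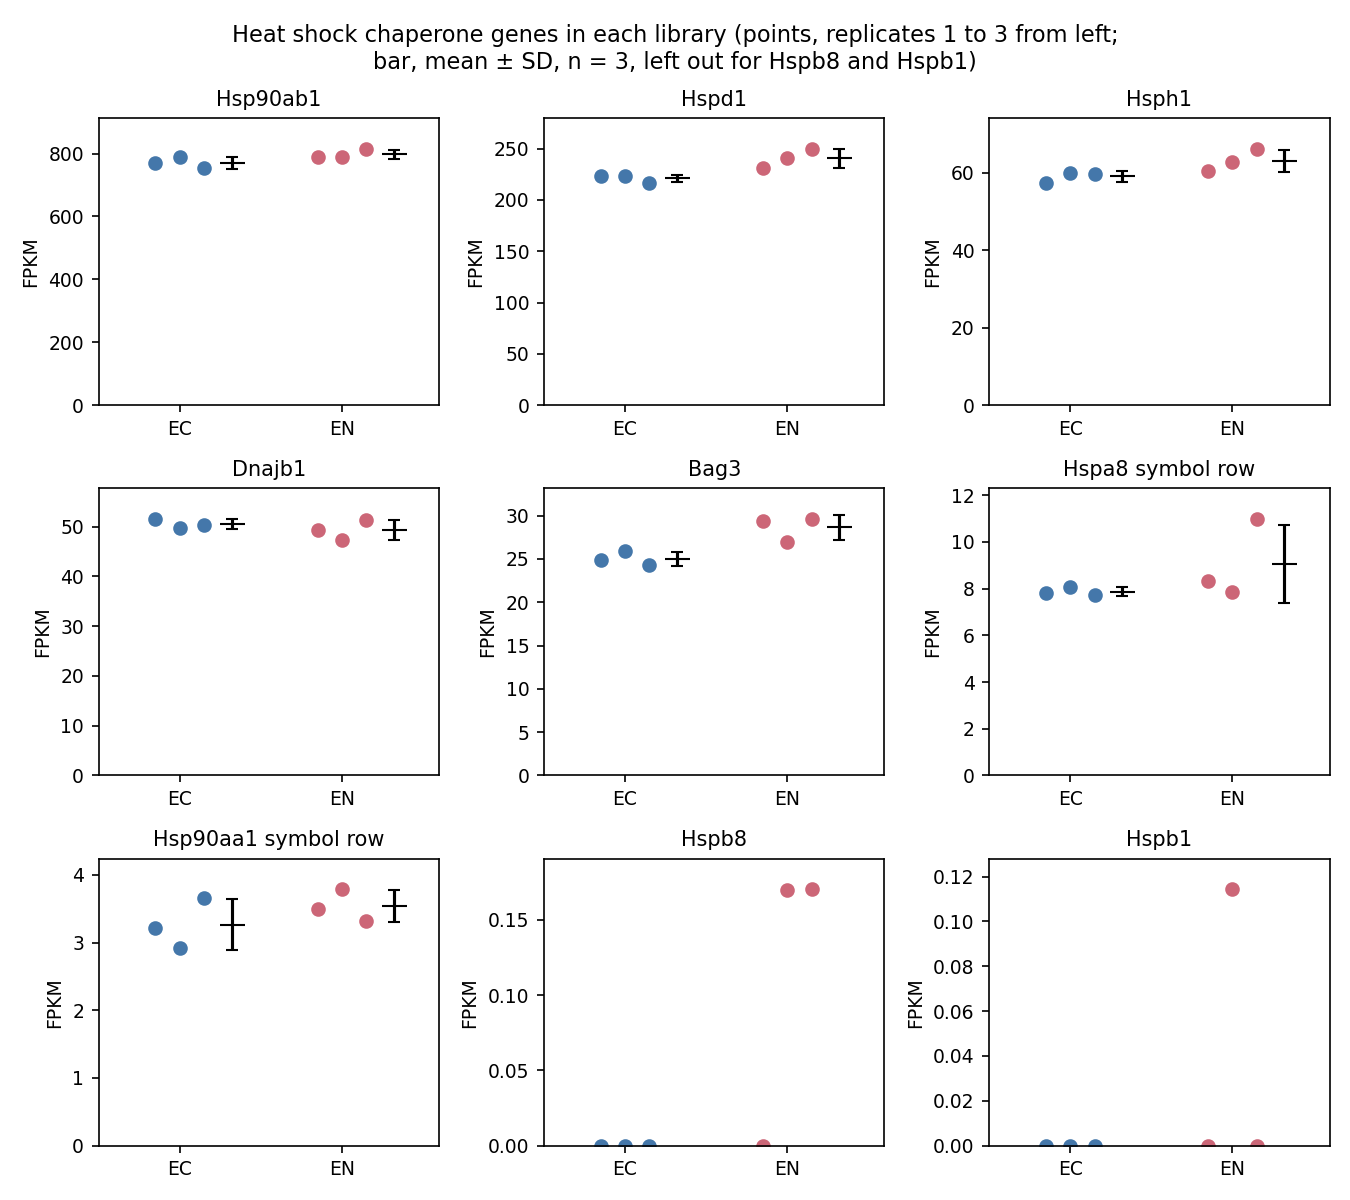
FPKM of each member in each library, EC in blue and EN in red, with the y axis from 0. Bag3, Hspd1 and Hsph1 have all 3 EN points above all 3 EC points, by up to 1.15-fold in the mean, and Hspb8 and Hspb1 are at or near 0.

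The HSC70 cycle came first in the order of roles. Bag3 encodes a co-chaperone that joins HSP70 to small heat shock proteins and to selective autophagy (chromosome 1, 199941161 to 199965191, Rnor_6.0). It was at 24.9, 25.9 and 24.3 FPKM in EC replicates 1 to 3 and at 29.4, 27.0 and 29.6 in EN. The groups did not overlap, and the EN mean was 1.15-fold the EC mean (25.0 ± 0.838 and 28.7 ± 1.45, SD, n = 3 each). Its log2 change was 0.19 (SE 0.052, 95% interval 0.07 to 0.31) with a limma adjusted p of 0.0532, just above the threshold. It was 0.0397 where only genes of at least 5 FPKM were tested, 0.0365 on the TPM scale and 0.0230 with voom, and 0.0743 to 0.157 with 1 library left out. Hsph1, the HSP110 exchange factor of HSP70 (chromosome 12, 6322668 to 6341902), was at 57.3, 60.0 and 59.7 FPKM in EC and at 60.5, 62.7 and 66.1 in EN. The groups were apart by less than 1 FPKM at their nearest libraries, EC replicate 2 and EN replicate 1. The change was 0.09 (95% interval -0.01 to 0.20, adjusted p = 0.192 in limma). Dnajb1, the J-domain protein that delivers clients to HSP70 (chromosome 19, 24747178 to 24750919), was the single tested member with a lower mean in EN. Its values of 51.5, 49.7 and 50.4 FPKM in EC and 49.3, 47.3 and 51.3 in EN overlapped, and its 95% interval of -0.14 to 0.07 holds 0 (limma adjusted p = 0.605).

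The row with the symbol Hspa8 does not carry most of the HSC70 signal. It lies on chromosome 5, 99031013 to 99033107, and its span of 2095 bases equals its gene length, so the model has no intron. RefSeq places Hspa8 on chromosome 8 of GRCr8 and lists 33 pseudogenes of it, so reads of near-identical copies may be divided among models. The row was at 7.80, 8.09 and 7.73 FPKM in EC and at 8.32, 7.86 and 11.0 in EN. EN replicate 3 stood apart and the other libraries overlapped, with a log2 change of 0.17 (95% interval -0.10 to 0.44) and 0.03 without EN replicate 3 (limma adjusted p = 0.350 and 0.744). A model without a gene symbol of its own, which the table describes as heat shock cognate protein, lies on chromosome 8, 44990014 to 44993179, and overlaps 3 SNORD14 models, small nucleolar RNAs known to be hosted in introns of Hspa8. It was at 497, 503 and 508 FPKM in EC and at 528, 497 and 552 in EN, 60.8-fold the level of the symbol row. Its groups overlapped through EN replicate 2, and its log2 change was 0.06 (95% interval -0.04 to 0.17, adjusted p = 0.378 in limma). This model and those below were chosen after their values were seen.

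Ratios within a library do not depend on its scaling. With the chromosome 8 model added to Hspa8, the Dnajb1 level was 0.102, 0.0971 and 0.0976 of the HSC70 level in EC and 0.0919, 0.0936 and 0.0911 in EN. All EN ratios were below all EC ratios, with means of 0.0989 ± 0.00270 and 0.0922 ± 0.00128 (SD, n = 3 each; exact two-sided permutation p = 0.1, the smallest possible). With the symbol row alone the Dnajb1 ratio was 6.42 ± 0.247 for EC and 5.54 ± 0.747 for EN (exact permutation p = 0.1), and the difference of -0.881 was -0.451 without EN replicate 3. The Hsph1 ratio to the added level was 0.116 ± 0.00189 in EC and 0.118 ± 0.00578 in EN, groups that overlapped (exact permutation p = 0.6). With the symbol row alone it was 7.49 ± 0.198 in EC and 7.09 ± 0.989 in EN, a difference in the other direction (exact permutation p = 0.7). These 4 ratio tests share their denominators in pairs, and 3 against 3 libraries cannot reach p under 0.05.

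Cytosolic HSP90 was dominated by the constitutive gene. Hsp90ab1 (chromosome 9, 17817721 to 17823243) was the highest member, at 769.6, 788 and 752 FPKM in EC and 788, 788 and 815 in EN, and held 67.3% of the summed FPKM of the 9 rows, or 45.3% with the models named by description summed in, where Hspa8 held 30.2%. EC replicate 2 lay among the EN libraries. The log2 change was 0.05 with a 95% interval of -0.04 to 0.14, that is, 0.976-fold to 1.10-fold (limma adjusted p = 0.379), and -0.05 with quantile normalization. The row named Hsp90aa1, the stress-inducible HSP90-alpha, lies on chromosome 6, 135045363 to 135049728, and overlaps Dync1h1 on the other strand, which was at 64.3 FPKM. How the counting treated strand is unknown here. The row was at 3.21, 2.92 and 3.66 FPKM in EC and 3.50, 3.79 and 3.32 in EN, with overlapping groups and a log2 change of 0.09 (95% interval -0.14 to 0.33, adjusted p = 0.565 in limma).

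Most reads described as HSP90-alpha were on models with other names. LOC103692716, described as heat shock protein HSP 90-alpha (chromosome 6, 135107271 to 135112775), was at 40.3, 44.7 and 31.3 FPKM in EC and at 30.6, 25.8 and 28.3 in EN. Every EN library was below every EC library, although EC replicate 3 was within 1 FPKM of EN replicate 1, and the EC libraries had a coefficient of variation of 17.6% against 8.54% in EN. The EC mean was 1.37-fold the EN mean, with a log2 change of -0.43 (SE 0.128, 95% interval -0.74 to -0.13) and a limma adjusted p of 0.0649. The p was 0.0268 with voom, 0.0442 where only genes of at least 5 FPKM were tested, 0.0162 with array weights and 0.0333 without EC replicate 3, and it was up to 0.181 without another library. A further model with no symbol on chromosome 13, 6344949 to 6347573, was matched to HSP90-alpha in its description and was at 17.2, 16.6 and 14.4 FPKM in EC and 19.7, 17.5 and 19.3 in EN. Its groups did not overlap either, and its log2 change was 0.22 (95% interval 0.03 to 0.40, limma adjusted p = 0.103). RefSeq lists 16 pseudogenes of Hsp90aa1, so reads of the 3 models may be divided. Summed with the symbol row, they gave 60.7, 64.2 and 49.4 FPKM in EC and 53.8, 47.1 and 50.9 in EN, with overlapping groups and a log2 change of -0.19 (95% interval -0.43 to 0.05, adjusted p = 0.235 in limma). The ratio of this sum to Hsp90ab1 had a mean of 0.0753 ± 0.00848 for EC libraries and 0.0635 ± 0.00433 for EN libraries (SD, n = 3 each; exact two-sided permutation p = 0.2). With the symbol row alone the ratio was 0.00425 ± 5.88e-04 and 0.00444 ± 3.66e-04 (exact permutation p = 0.8).

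**Figure D2:**
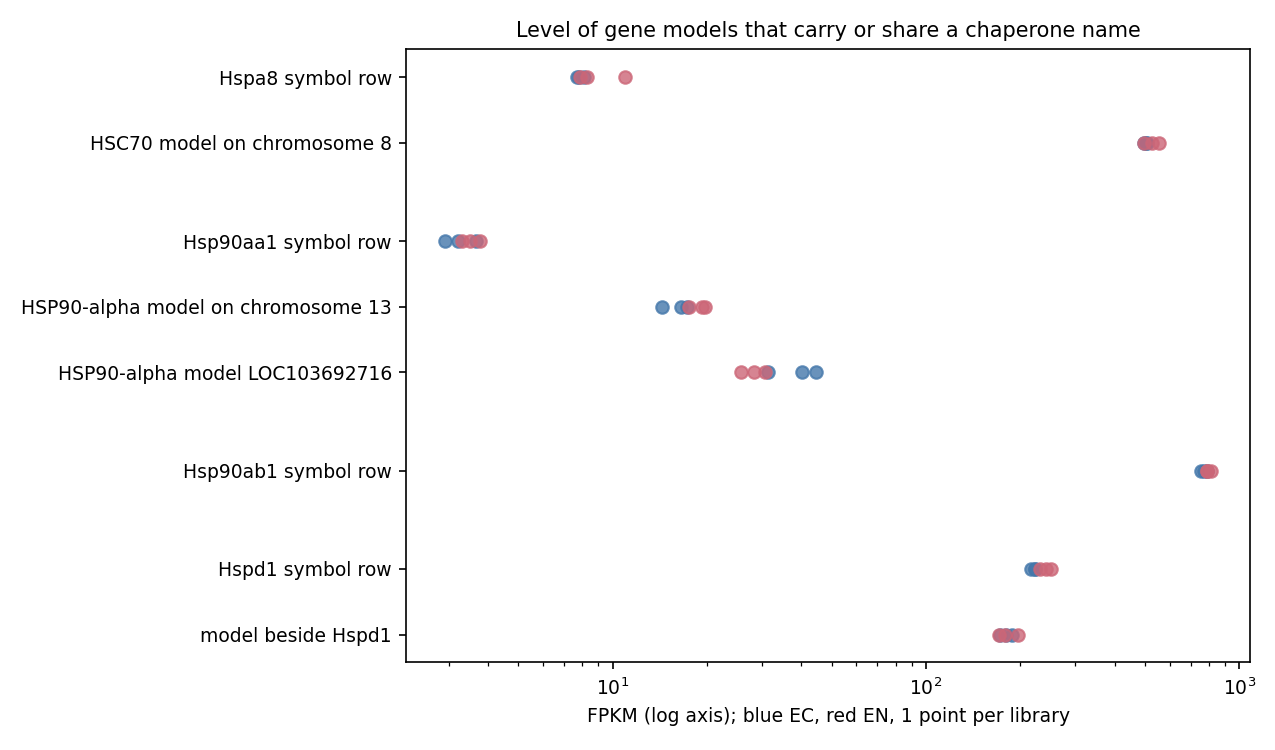
FPKM on a log axis of HSC70, HSP90 and HSP60 gene models that carry a chaperone symbol or description, and of the model beside Hspd1, which carries neither. There is 1 point per library, EC in blue and EN in red. The Hspa8 symbol row sits near 8 FPKM and the chromosome 8 model at means of 503 and 526, and LOC103692716 is the one model with all EN points below all EC points.

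Hspd1, the mitochondrial chaperonin HSP60 (chromosome 9, 61680530 to 61690956), was the second highest of the 9 rows. It was at 223, 223 and 217 FPKM in EC and at 231, 241 and 249.9 in EN, with no overlap. The means were 221 ± 3.70 and 241 ± 9.31 (SD, n = 3 each), 1.09-fold apart, with a log2 change of 0.12 (SE 0.039, 95% interval 0.03 to 0.21) and a limma adjusted p of 0.0803. The p was 0.0407 on the TPM scale, 0.0136 with voom, 0.0248 with array weights and 0.0844 to 0.213 with 1 library left out. For Hspe1, the table has a protein-coding model with neither symbol nor description that starts 1198 bases beyond Hspd1 on the opposite strand (chromosome 9, 61692154 to 61694599). In RefSeq's GRCr8 the gene next to Hspd1 on that side is Hspe1, but the model's identity is not given in the table, and it is described here by its place alone. It was at 173, 188 and 179 FPKM in EC and at 196, 178 and 171 in EN, and its groups overlapped fully (log2 change 0.01, 95% interval -0.13 to 0.15, limma adjusted p = 0.905). Hspd1 was thus at 1.29, 1.19 and 1.21 times the level of its neighbour in EC and at 1.18, 1.35 and 1.46 times in EN (exact two-sided permutation p = 0.4).

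The small heat shock members were at or near 0. Hspb1, HSP27, which binds unfolded proteins and actin (chromosome 12, 23839399 to 23841049), had 2 reads, both from EN replicate 2, and 5 libraries had none. A count of 0 over the 3 EC libraries allows up to 0.0732 FPKM (3 reads over the group, counting error only). Hspb8, the partner of BAG3 (chromosome 12, 45905371 to 45920013), had 6 reads in EN replicate 2, 5 in EN replicate 3 and none in EN replicate 1 or EC, which allows up to 0.0363 FPKM in EC. For Hspb8 the values of EN replicates 2 and 3, both 0.170 FPKM, lay above that limit and EN replicate 1 did not. Neither gene was tested. Another small heat shock gene took the opposite place: Cryab, alpha-B crystallin (chromosome 8, 55178289 to 55182545), was at 472, 511 and 473 FPKM in EC and at 349, 349 and 348 in EN. It fell by 0.48 on the log2 scale (SE 0.041, limma adjusted p = 0.00223), with an EC mean 1.39-fold the EN mean, and passed with each library left out (adjusted p up to 0.0207). The summed Schwann and glial markers moved with it, from 478 to 487 FPKM in EC to 420.4 to 453 in EN, and their part in its change was not tested.

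**Figure D3:**
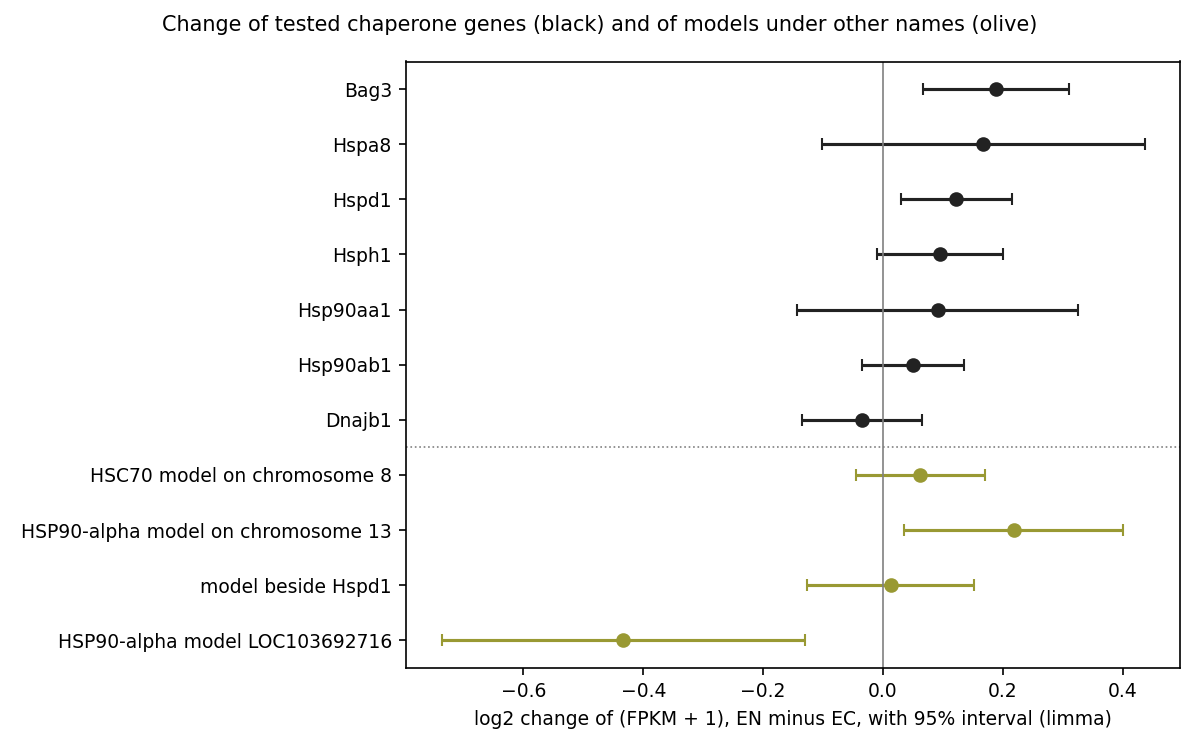
Log2 change of FPKM + 1, EN minus EC, with its 95% limma interval, for the 7 tested members in black and for 4 models under other names in olive. The intervals of Bag3, Hspd1 and the chromosome 13 model lie above 0 before adjustment, Dnajb1 is just below 0 at -0.04, and LOC103692716 is lowest at -0.43.

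The HSF pathway and the other chaperones were read from 10 lists of 112 genes, of which 111 were in the table and 98 were tested. Among these, 13 were higher, 9 were lower and 76 missed the threshold, so that 22.4% passed against 14.4% of all genes, with a median log2 change of 0.02. Where only genes of at least 5 FPKM were tested, 23 of 93 passed against 22.0% of all genes. Without a filter 14 of 98 passed, where 866 of 20495 genes did. On the TPM scale, with voom and with array weights 23, 27 and 38 of the 98 passed, against 14.1%, 19.2% and 31.6% of all genes. The count depended on which libraries were kept. Leaving out EC replicate 1 gave 20 and leaving out EN replicate 3 gave 26, but leaving out replicate 2 or 3 of EC gave 4, replicate 1 of EN gave 6 and replicate 2 of EN gave 5. The calls over all genes fell too, from 1754 to 338 and 408 without replicate 2 or 3 of EC. They were 446 and 344 without replicate 1 or 2 of EN. Of the 22 genes, Cdc37, Cryab and Unc45a passed in all 6 fits that left a library out, and the other 19 missed it in at least 1.

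Among heat shock factors and their binding proteins, 2 of 4 tested genes were lower and none was higher, against 7.14% and 7.24% of all genes. Hsf1, the main stress-responsive factor, was at 19.9, 19.2 and 20.1 FPKM in EC and at 22.9, 21.7 and 21.3 in EN, with no overlap, but did not pass (log2 change 0.15, limma adjusted p = 0.0740). Hsf2, a related factor, fell by 0.30 (31.1 ± 1.55 to 25.2 ± 2.37 FPKM, SD, n = 3 each; adjusted p = 0.0428, and up to 0.136 with 1 library left out, in limma). Hsbp1, a small protein that binds HSF1 trimers, fell by 0.26, from 137 ± 3.64 to 114 ± 2.58 FPKM (limma adjusted p = 0.00945, also lost without replicate 2 of EC or of EN, at up to 0.0519). Few reads were assigned to the inducible HSP70 genes in either group. Hspa1b had 103 reads in all and lay at 0.317, 0.324 and 0.379 FPKM in EC and at 0.628, 0.368 and 0.467 in EN, with EC replicate 3 above EN replicate 2. Hspa1a had 2 reads in all, and as the 2 genes are near-identical copies their reads may be divided. How reads that match both were counted is unknown here, so the low values may not show low expression. A model on the other strand overlaps Hspa1b. In the other HSP70 and HSP110 genes, 0 of 6 passed.

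Of the BAG family and other HSP70 regulators outside the members, 4 of 8 tested genes were higher and none was lower, against 7.24% and 7.14% of all genes. Their median log2 change was 0.19. Stub1, the ubiquitin ligase CHIP that binds HSP70 and HSP90, rose by 0.34, from 29.8 ± 1.49 to 38.0 ± 1.74 FPKM (SD, n = 3 each; limma adjusted p = 0.0131). Hspbp1, an exchange factor, rose by 0.32, Bag1 by 0.25 and Bag6 by 0.21, each with an adjusted p between 0.0218 and 0.0224. Models on the other strand overlap Stub1 and Bag6. None of the list passed when replicate 2 or 3 of EC was left out, and 1 did when replicate 1 or 2 of EN was.

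The HSP90 co-chaperones moved in both directions, with 5 of 16 past the threshold as higher and 3 as lower (median 0.06), against 7.24% and 7.14% of all genes. Cdc37, which brings kinases to HSP90, was at 73.0, 72.3 and 65.9 FPKM in EC and at 99.4, 97.9 and 89.4 in EN. Its groups were well apart, and it rose by 0.44 (SE 0.059, limma adjusted p = 0.00879, and at most 0.0448 with 1 library left out). Unc45a, a myosin chaperone that binds HSP90, was at 23.2, 22.7 and 21.9 FPKM in EC and at 28.4, 28.2 and 29.4 in EN. It rose by 0.33 (SE 0.042, limma adjusted p = 0.00757, and at most 0.0409 with 1 library left out). Ahsa1, the activator of the HSP90 ATPase, rose by 0.36 and the immunophilin gene Fkbp4 by 0.24, while Sugt1 fell by 0.24 and Cacybp by 0.21 (limma adjusted p = 0.0290, 0.0210, 0.0209 and 0.0445). These 4 calls were lost without at least 4 of the 6 libraries in turn, and the list held 2 higher and 0 lower genes when replicate 2 or 3 of EC, or 1 or 2 of EN, was left out. Models on the other strand overlap Sugt1.

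**Figure D4:**
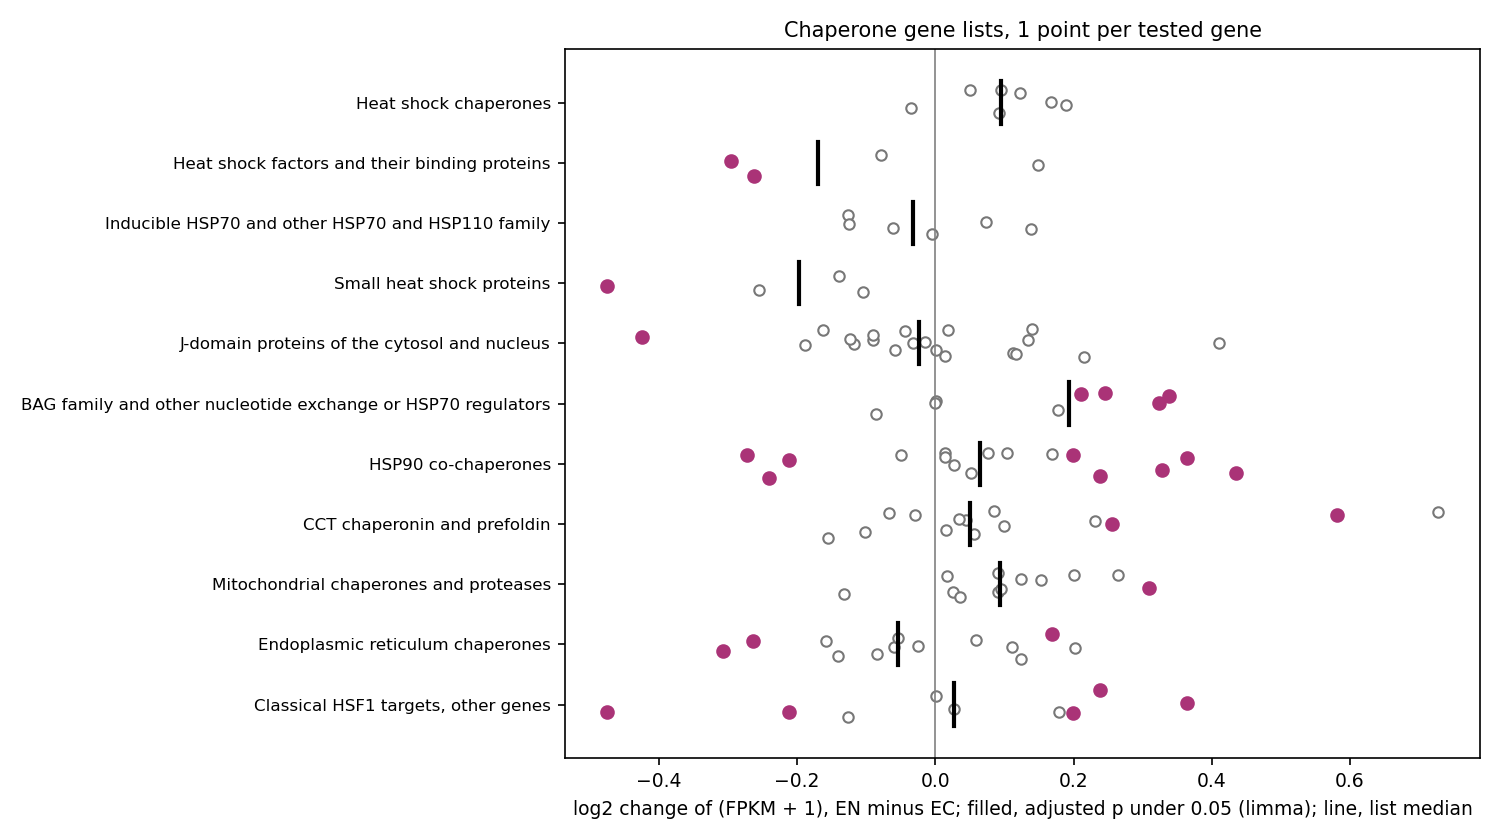
Log2 change of FPKM + 1, EN minus EC, for each tested gene of the members and of 10 other chaperone lists, filled where the limma adjusted p was under 0.05, with a line at each median. The 7 members are all open, the 4 filled points of the BAG list are to the right, and the HSP90 co-chaperones have filled points on both sides.

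Among J-domain proteins of the cytosol and nucleus 1 of 20 was lower, Dnajb4, by 0.42 (22.3 ± 1.02 to 16.4 ± 1.61 FPKM, SD, n = 3 each; limma adjusted p = 0.0189, lost without EC replicate 2, EC replicate 3 or EN replicate 2, at up to 0.0723). Of 14 chaperonin and prefoldin genes, which fold actin and tubulin, 2 were higher. These were Vbp1, a prefoldin subunit, by 0.58 and Cct7 by 0.26 (limma adjusted p = 0.0173 and 0.0270, and 0.0648 and 0.0992 without EN replicate 2). Neither passed without EC replicate 3 or EN replicate 1 (the list then held 0 called genes). Of 12 other mitochondrial chaperones and proteases, the compartment of Hspd1, 1 was higher: the protease gene Lonp1, by 0.31 (60.0 ± 3.55 to 74.5 ± 2.10 FPKM; limma adjusted p = 0.0150, lost without EC replicate 2, EC replicate 3 or EN replicate 1, at up to 0.0660). In the endoplasmic reticulum, Calr was higher by 0.17, and Dnajb9 and Canx fell by 0.31 and 0.26 among 13 tested genes (limma adjusted p of 0.0262 to 0.0272, and 0.0963 to 0.104 at most with 1 library left out). Of the 9 tested classical HSF1 targets outside the members, 3 were higher (Fkbp4, Ahsa1 and, named after its value was seen, Stip1) and 2 were lower (Cryab and Cacybp), with a median log2 change of 0.03. When replicate 2 or 3 of EC, or 1 or 2 of EN, was left out, this list had 1 lower gene and no higher one. All counts in this paragraph stand against 7.24% of all tested genes higher and 7.14% lower with all libraries.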

How the data were processed

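RNA was sequenced from 6 libraries labelled PC12. The authors deposited FPKM for 33350 gene models with their lengths. The submitters' processing notes name HISAT2 2.0.5 as a tool and Rnor_6.0 as the build. The sources used here do not name the counter, annotation release, strand setting or filters. Whole reads were worked back from FPKM and gene length (100% of non-zero values came out whole within 0.001). Models without a symbol held 0.829% of reads and stayed in.

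Groups were compared on log2(FPKM + 1) by a two-sided limma test (version 3.58.1, R 4.3.3) with a variance trend, for genes averaging 1 FPKM or more, with the Benjamini-Hochberg adjusted p over all of them. It was checked on simulated data that held no effects of single libraries other than depth, so the check does not cover such effects. Single values were compared with exact permutation tests. The members and lists were chosen with earlier results of these data known. Named genes are the members, up to 4 genes per list with the smallest adjusted p past the threshold, Hsf1, Hspa1a and Hspa1b. Alternatives were pseudocounts of 0.1 and 0.5, other filters and scales, no trend, array weights, voom, a replicate block and each library left out. After the data were seen, models sharing a member's description were summed in.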

Additional observations from a re-analysis of the deposited data

How the results depend on the processing

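The number of members past the test moved from 0 to 1 with a filter at 5 FPKM (Bag3) or with array weights (Hspd1), and to 2 on the TPM scale or with voom, and it was 0 with each library left out. Of all genes, 22.0% passed with the filter at 5 FPKM, 31.6% with array weights, 14.1% on the TPM scale and 19.2% with voom. The members' median log2 change, 0.095, was 0.144 with voom, 0.065 with the models named by description summed in and 0.061 (without EN replicate 3) to 0.125 (without EN replicate 1) with 1 library left out. The other chaperone genes past the test numbered 14 without a filter, 14 without a variance trend, 38 with array weights and 4 to 26 with 1 library left out, against 22. Over all genes the numbers were 866, 1019 and 3849 under the same 3 settings and 338 to 2059 with 1 library left out, against 1754, and voom gave 2343. The Hsp90aa1 to Hsp90ab1 ratio differed by 1.92e-04 in EN minus EC, by -0.0119 with the models named by description summed in, and by -8.17e-05 (without EC replicate 2) to 5.03e-04 (without EC replicate 3) with 1 library left out. Summing enlarges the numerator, so these differences are on unlike scales. The EN mean was 1.05-fold the EC mean with the symbol row and 0.842-fold with the summed models. The Hsph1 to Hspa8 ratio differed by -0.404, by 0.00263 with the summed models, and by -0.848 to 0.129 with 1 library left out. Here summing enlarges the denominator. The EN mean was 0.946-fold the EC mean with the symbol row and 1.02-fold with the summed models. The Dnajb1 to Hspa8 ratio differed by -0.881, and by -1.12 to -0.451 with 1 library left out (exact permutation p of 0.1 to 0.3). Among single genes, the log2 change turned to -0.053 for Hsp90ab1 with quantile normalization, to -0.19 for Hsp90aa1 with the summed models and to -0.014 for the model beside Hspd1 with array weights, and the last ranged from -0.043 (without EN replicate 1) to 0.055 (without EN replicate 3) with 1 library left out. The cause was not tested for any of these.

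With the replicate number as a block, 0 members, 1907 genes in all and 22 other chaperone genes passed, and the members' median was 0.09. The labels do not say that a number marks a shared culture. The deviations of same-numbered libraries correlated at 0.088, -0.095 and -0.020, within the range of -0.111 to 0.134 of differently numbered ones. With 3 libraries per group these values cannot tell whether same-numbered libraries shared a culture. The Hspd1 to Hspe1 ratio and the sum over rows named as pseudogenes of a member could not be computed, because the table has no row with those symbols. Depth limits Hspb1, Hspb8, Hspa1a and Hspa1b, which had 2 to 103 reads in all.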
